A study of Mus musculus with 16 samples.

Results

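Genes that mark newborn neurons and their progenitors were followed in the hippocampus of 3xTg-AD mice, namely Nes, Ccnd2, Eomes, Neurod1, Sox4, Sox11, Dcx, Tubb2b, Igfbpl1 and Draxin. All 10 were found by their symbol among the genes of the array annotation, where 37 of 45037 probe sets carried 1 of them as the only symbol. A probe set is a group of short DNA probes against 1 transcript. RNA from 16 female mice was hybridised, 1 array per animal, 8 on a control diet and 8 on a diet with pioglitazone (PIO) at 84 ppm, which the labels equate with about 18 mg/kg each day. Feeding began at 10 months of age and lasted about 14 weeks, and the labels give an age of 14 months. PIO is a thiazolidinedione that activates the nuclear receptor PPAR gamma. Animals of both diets carried the 3xTg-AD genotype, in which mutant human APP and tau are expressed in neurons from a Thy1 cassette on a mutant presenilin 1 knock-in, and no mice without it were analysed here. The comparison is therefore between diets within this model.

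In the adult hippocampus new granule neurons arise in the subgranular zone of the dentate gyrus. Radial glia-like stem cells, which contain the intermediate filament nestin, give rise to intermediate progenitors that switch on Eomes (Tbr2) and divide with the help of cyclin D2. Their daughters pass through a phase with NeuroD1, Sox4, Sox11 and the microtubule protein doublecortin before they mature. This pool shrinks strongly with age in mice. Several of the genes are also active outside the lineage, Sox4 in oligodendrocyte precursors, nestin in vessels and doublecortin in migrating neuroblasts of the subventricular zone. In RNA of whole tissue, fewer cells of a type and less RNA per cell cannot be told apart.

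The values are log2 expression, between 0.33 and 16.6, with array medians of 5.65 to 5.76. All 8 checked markers of hippocampal or forebrain neurons passed the filter on low values, as did 11 of 12 choroid plexus markers. The choroid list mean, relative to all arrays, ran from -3.32 to 2.53 in controls and from -3.64 to 2.74 with PIO. PIO animals 14 and 15 had the highest striatal list means, 0.85 and 1.02, and the lowest dentate granule means, -0.52 and -0.47, and PIO animal 16 had the highest thalamic mean, 1.40. A number in the array label was 1 to 6 for the first 4 control and first 2 PIO animals, and 10 to 24 for the others. A second code in that label formed 3 array batches, and what it stands for is not stated. The largest batch held 5 control and 6 PIO arrays.

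Only part of the lineage was measurable. Of the 37 probe sets, 24 had a mean above the 40th percentile of all probe sets (3.58 log2 units), and 7 of the 10 genes had at least 1 of them. Nes, Igfbpl1 and Draxin had none. The highest of 3 Nes probe sets had a control mean of 2.94 ± 0.087 log2 units and a PIO mean of 2.86 ± 0.060 (SD, n = 8 each). For Igfbpl1, whose product resembles the IGF-binding proteins, the better of 2 probe sets stood at 2.27 ± 0.028 and 2.26 ± 0.023. For Draxin, a repulsive axon guidance protein, it stood at 2.23 ± 0.056 and 2.26 ± 0.054. All 7 probe sets of these genes lay between the 2.12 and 32.4 percentiles of all probe sets. Whether they stood above background was not tested, and no direction is drawn from their differences. Below the filter also lay 3 of 8 Sox4 probe sets, 2 of 4 Dcx probe sets and 1 of 2 Eomes probe sets.

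**Figure D1:**
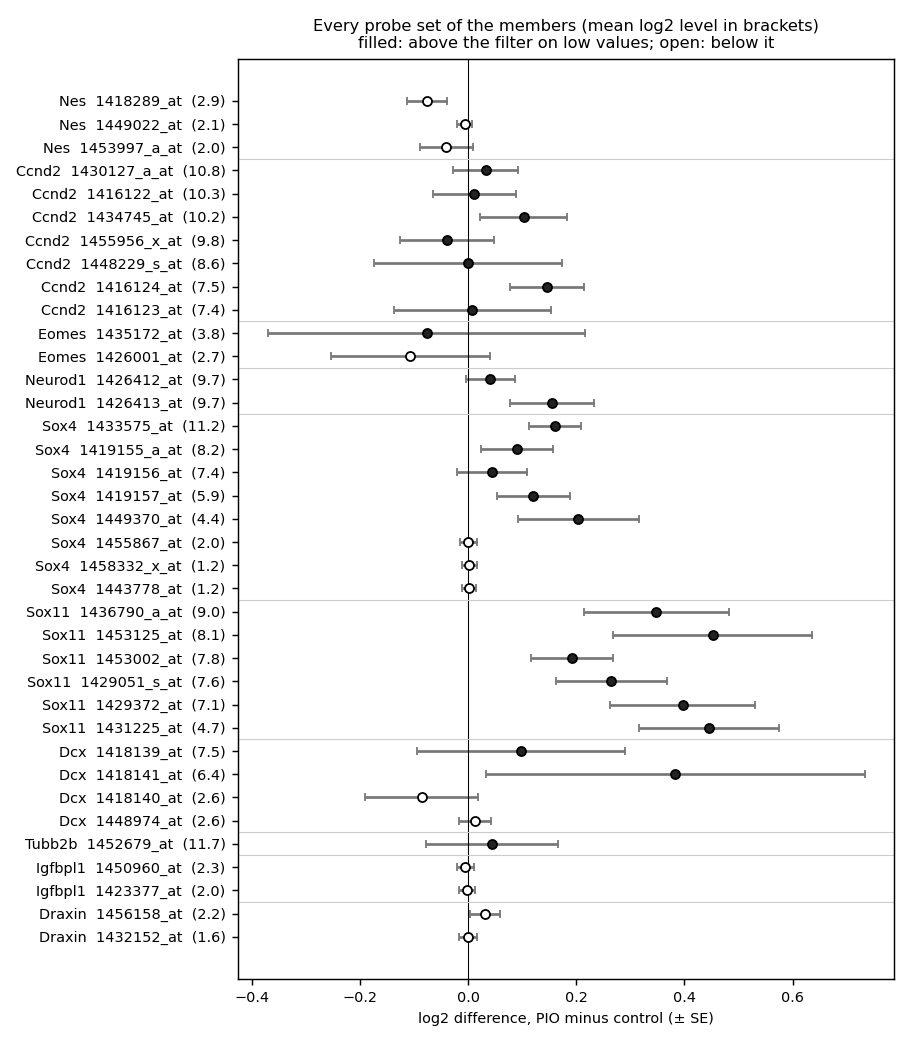
Log2 difference, PIO minus control, with its SE for each of the 37 probe sets, grouped by gene and ordered by mean level, which stands in brackets. Filled points lie above the filter on low values and open points below it. The 6 Sox11 probe sets all lie to the right of 0, from 0.19 to 0.45, while the open points of Igfbpl1, Draxin and Sox4 sit between -0.0055 and 0.031.

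No gene passed an adjusted p of 0.05 between the diets, members included. In limma's fit of 12266 genes, 0 were called (0% of those tested), and 859 (7.00%) had an unadjusted p under 0.05, 473 of them higher with PIO (3.86%) and 386 lower (3.15%). Of the 7 members tested, 2 had an unadjusted p under 0.05, Sox4 and Sox11, both with higher means in PIO animals. The median difference of the 7 was 0.044 log2 units, against 0.0045 over all genes, but it was 0.11 without control animal 6 and 0.12 without PIO animals 14 to 16. With every array 6 of the 7 differences were above 0, as were 52.7% of all genes. In the fit of every probe set, 0 of 45037 passed the adjusted threshold, and 2367 (5.26%) had an unadjusted p under 0.05. Among the 24 member probe sets above the filter, 8 did so, 6 of Sox11 and 1 each of Sox4 and Ccnd2, all higher with PIO, where 4.57% of the 22811 probe sets above the filter were (8.17% in either direction). Probe sets of 1 gene measure 1 transcript in the same animals and are not independent.

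Sox11 had the largest difference of the measurable members. It encodes a SoxC transcription factor of postmitotic neurons that are still immature. The probe set with the highest mean read 8.87, 8.88, 9.26, 8.98, 8.82, 8.59, 8.59 and 8.62 in controls 1 to 8, and 9.24, 9.28, 8.99, 9.43, 8.68, 9.11, 9.73 and 8.93 in PIO animals 9 to 16. The groups overlapped, with 3 of 8 PIO animals above the highest control and 3 of 8 controls below the lowest PIO animal. The means were 8.83 ± 0.23 and 9.17 ± 0.32 (SD, n = 8 each), a difference of 0.35 log2 units (SE 0.13), 1.27-fold, with an unadjusted p of 0.0173 and an adjusted p of 0.681 in limma's fit. The other 5 Sox11 probe sets differed by between 0.19 and 0.45, and all 6 had an unadjusted p under 0.05.

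The other Sox11 probe sets also followed the leading one from animal to animal. Over 16 arrays their Pearson r with the leading one was between 0.67 and 0.85, and Spearman's rho between 0.58 and 0.79 (largest permutation p adjusted over 17 pairs of probe sets, 0.00922 for r and 0.0337 for rho). Since all of them were higher with PIO, these values include the diet difference. After each diet mean was subtracted r was 0.49 to 0.79 and rho 0.21 to 0.76, and the lowest r did not pass (adjusted permutation p = 0.0892). Without the 2 arrays farthest from the median r was 0.52 to 0.83, and in the largest batch it was 0.42 to 0.76. The pair with the lowest r passed in neither (adjusted permutation p = 0.112 and 0.241), and in that batch another pair also did not (0.0552). The Sox11 probe set with the smallest p had 8 of 8 PIO animals above the control median and 7 of 8 controls below the lowest PIO animal, with a difference of 0.45 (SE 0.13) and an adjusted p of 0.864 in limma's fit of all probe sets. It was also the dimmest, with a mean of 4.70 log2 units where the others had 7.09 to 9.00. Of all Sox11 probe sets it followed the leading one least.

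Sox4, the other SoxC factor with a role in the same immature neurons, had a smaller and tighter difference. Its leading probe set read 11.22, 11.18, 11.17, 11.04, 11.05, 10.96, 11.21 and 11.01 in control animals 1 to 8, and 11.29, 11.30, 11.13, 11.19, 11.18, 11.25, 11.45 and 11.32 in PIO animals 9 to 16. In Sox4, 5 of 8 PIO animals lay above the highest control, and 4 of 8 controls lay below the lowest PIO animal. The means were 11.11 ± 0.10 and 11.27 ± 0.099 (SD, n = 8 each), a difference of 0.16 (SE 0.051), 1.12-fold, with an unadjusted p of 0.00622 and an adjusted p of 0.605 in limma's fit. All 5 Sox4 probe sets above the filter had higher means with PIO, by 0.044 to 0.20, but only the leading one had an unadjusted p under 0.05. Unlike those of Sox11, the other Sox4 probe sets followed the leading one little, with r to it of 0.25 to 0.49 and rho of 0.068 to 0.41. No pair passed a permutation p adjusted over the 17 pairs (0.0841 or more for r). How the other probe sets followed each other was not computed. In the largest batch r was 0.25 to 0.76, with 1 of the 4 pairs past that threshold (0.0366), and without the 2 farthest arrays it was -0.13 to 0.10.

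The promoters of the 2 SoxC genes are shown because these were the members with the smallest p in the diet comparison, beside that of Dcx, whose values followed other tissue markers. Sequences are from RefSeq, build GRCm38.p6, from 250 bases before to 50 bases after the start, 5′ to 3′ on the minus strand, which carries all 3 genes. Capitals mark the E-box, CANNTG, a palindrome bound by basic helix-loop-helix factors such as NeuroD1, at chr12:27342669-27342968 for Sox11, chr13:28953650-28953949 for Sox4 and chrX:143933170-143933469 for the upstream Dcx start.
Sox11: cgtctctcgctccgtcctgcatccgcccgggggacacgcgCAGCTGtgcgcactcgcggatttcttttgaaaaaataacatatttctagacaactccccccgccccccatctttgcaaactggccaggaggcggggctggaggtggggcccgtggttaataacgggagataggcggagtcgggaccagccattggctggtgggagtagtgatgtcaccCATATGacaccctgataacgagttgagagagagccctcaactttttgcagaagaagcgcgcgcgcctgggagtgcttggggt
Sox4: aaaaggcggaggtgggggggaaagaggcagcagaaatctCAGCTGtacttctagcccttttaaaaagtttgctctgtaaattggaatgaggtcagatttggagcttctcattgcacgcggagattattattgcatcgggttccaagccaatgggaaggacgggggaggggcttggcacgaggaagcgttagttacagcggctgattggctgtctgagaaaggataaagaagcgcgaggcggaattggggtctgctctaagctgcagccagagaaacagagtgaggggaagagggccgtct
Dcx: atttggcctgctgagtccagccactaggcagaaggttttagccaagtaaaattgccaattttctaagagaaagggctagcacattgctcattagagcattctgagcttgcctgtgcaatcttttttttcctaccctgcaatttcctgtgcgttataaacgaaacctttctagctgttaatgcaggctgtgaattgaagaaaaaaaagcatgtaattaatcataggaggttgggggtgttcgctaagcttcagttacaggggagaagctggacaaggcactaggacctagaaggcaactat
The Sox11 window held 2 E-boxes, CAGCTG and CATATG, and the Sox4 window held 1, CAGCTG. Neither of the 2 Dcx windows held one. An E-box occurred in 72.3% of 32851 promoters of the same length. CCAAT was found 4 times for Sox4, once for Sox11 and once in each Dcx window, and in 37.4% of all promoters, both strands searched. Of the 10 members 7 had an entry, with 8 windows, and Igfbpl1, Tubb2b and Ccnd2 had none. A match or its lack describes these letters only.

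**Figure D2:**
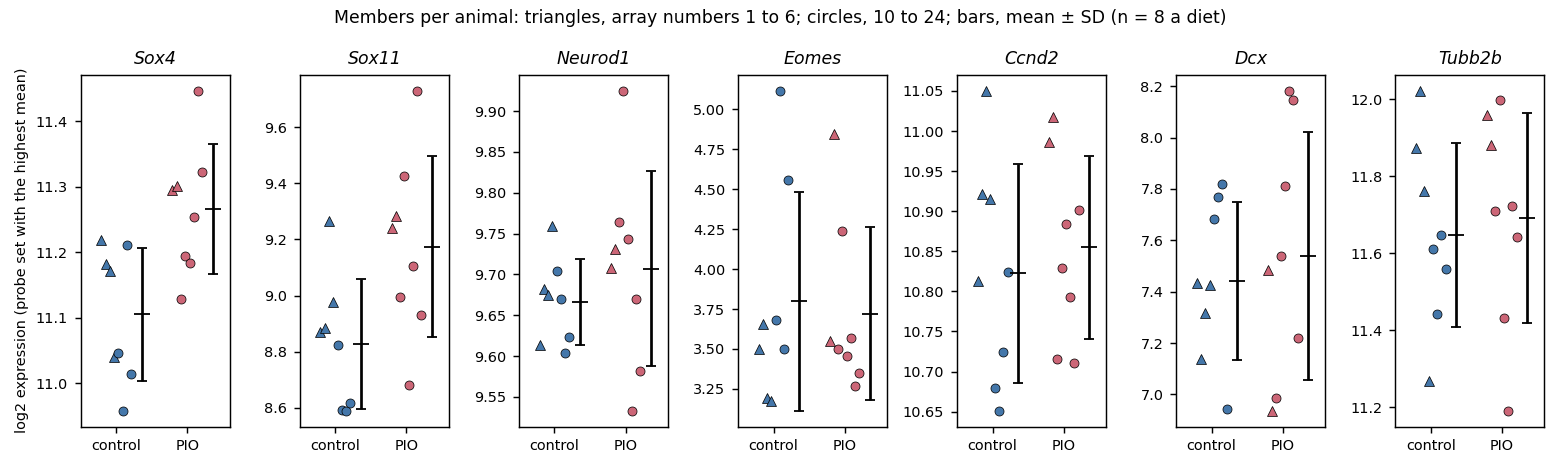
Log2 expression in each animal for the 7 members with a probe set above the filter, 1 panel a gene with its own axis. Triangles are arrays numbered 1 to 6 and circles arrays 10 to 24, and bars give the mean and SD of the 8 animals of a diet. Sox4 and Sox11 sit higher in PIO animals with overlap, and the other 5 genes overlap over most of their range.

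The Sox11 values of controls did not overlap between the array number ranges. They lay between 8.87 and 9.26 in the 4 controls with array numbers 1 to 4, and between 8.59 and 8.82 in the other 4, while the Sox4 controls overlapped, from 11.04 to 11.22 and from 10.96 to 11.21. The share of all genes whose controls separated in this way was not counted, so it is not known to be particular to Sox11. With array number range as a block the diet difference was 0.41 (SE 0.13) for Sox11 and 0.18 (SE 0.052) for Sox4 (adjusted p = 0.601 and 0.583 in limma's fit). Within arrays 10 to 24 the difference was 0.49 (SE 0.18) for Sox11 and 0.20 (SE 0.073) for Sox4. Within the largest batch it was 0.24 (SE 0.14) and 0.11 (SE 0.057), and neither had an unadjusted p under 0.05 there in limma's fit (0.120 and 0.0750). In the second batch, 2 controls and PIO animal 15 alone, the differences were 0.95 and 0.32, and in the third, 1 animal of each diet, 0.32 and 0.31. Both genes were highest in PIO animal 15, which also had the highest striatal list mean. Over 16 arrays neither relation to that list passed the threshold adjusted over 91 relations (r = 0.60, rho = 0.45 and adjusted permutation p = 0.211 for Sox4, and r = 0.44, rho = 0.19 and adjusted permutation p = 0.387 for Sox11). With that list mean as a covariate Sox11 differed by 0.29 (SE 0.14, unadjusted p = 0.0528, adjusted p = 0.919) and Sox4 by 0.12 (SE 0.049, unadjusted p = 0.0229). Without PIO animals 14 and 15 the values were 0.27 (SE 0.13) and 0.13 (SE 0.052), and 2 of 6 Sox11 probe sets had an unadjusted p under 0.05, where all 6 did with every array.

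**Figure D3:**
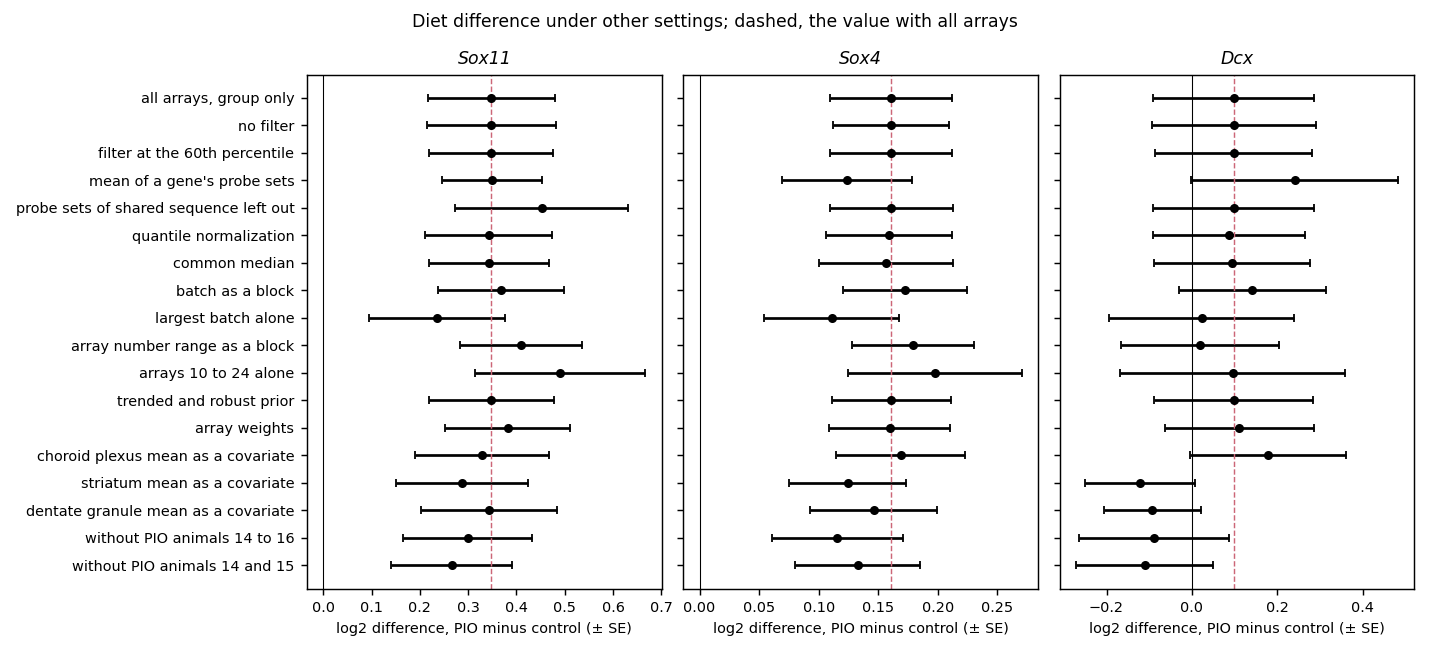
Log2 difference, PIO minus control, with its SE for Sox11, Sox4 and Dcx under each setting tried on the arrays, with the value of all arrays as a dashed line. Sox11 stays between 0.24 and 0.49 and Sox4 between 0.11 and 0.20. Dcx changes side, from 0.24 with the mean of its probe sets to -0.12 with the striatal covariate.

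Over all 16 arrays Sox4 and Sox11 had the highest r of any pair of measurable members. Their r was 0.68 and rho 0.53, with permutation p of 0.00409 and 0.0391 that did not pass when adjusted over the 45 pairs of members (0.0792 and 0.361). After each diet mean was subtracted r was 0.50 (permutation p = 0.0486, adjusted 0.471), and in the largest batch 0.66 (permutation p = 0.0250, adjusted 0.225), where Ccnd2 and Sox4 had a higher r of 0.74 (permutation p = 0.00765, adjusted 0.131). Without PIO animal 15 and control animal 6, the arrays farthest from the median of Sox4, r was 0.41, so the relation rests in part on those animals. No other pair among the 7 had an unadjusted permutation p under 0.05 over the 16 arrays for r. For rho, Ccnd2 and Dcx had a value of the same size in the other direction, -0.53 (permutation p = 0.0401, adjusted 0.361).

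**Figure D4:**
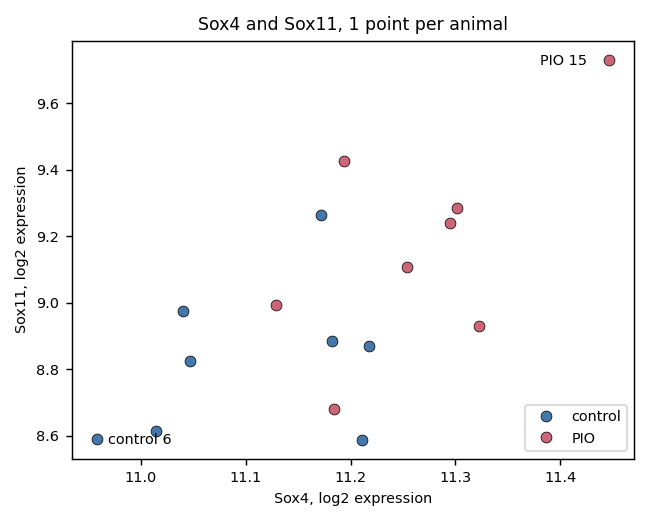
Log2 expression of Sox11 against that of Sox4, 1 point per animal in the colour of its diet. PIO animal 15 is highest in both genes, at 11.45 and 9.73, and control animal 6 is lowest in Sox4.

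Neurod1, the helix-loop-helix factor that drives granule neuron differentiation, was among the steadiest of the members. Its leading probe set read 9.60 to 9.76 in controls, with a median of 9.67, and 9.53 to 9.93 with PIO, with a median of 9.72. The SD within a diet was 0.092, at the 23rd percentile of all genes tested. The difference was 0.041 (SE 0.048, adjusted p = 0.886 in limma's fit). It was 0.0097 (SE 0.041) without PIO animal 12, which had the highest value, and 0.11 (SE 0.044, unadjusted p = 0.0288, adjusted p = 0.958) without PIO animals 14 to 16. A second probe set differed by 0.15 (SE 0.077, unadjusted p = 0.0623), with 3 of 8 PIO animals above the highest control. NeuroD1 remains active in mature granule neurons, so its level is not that of newborn cells alone.

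Eomes, the marker of intermediate progenitors, stood just above the filter and came from a few animals. It read 3.50, 3.65, 3.19, 3.18, 3.68, 5.12, 3.50 and 4.56 in control animals 1 to 8, and 3.55, 4.85, 3.50, 4.24, 3.45, 3.57, 3.27 and 3.35 in PIO animals 9 to 16. The animals above 4 were control animals 6 and 8 and PIO animals 10 and 12, and all 4 had choroid list means above 0, between 1.73 and 2.53, as 6 other animals did. Over 16 arrays r with that list was 0.44 (permutation p adjusted over 91 relations, 0.387). The largest r of Eomes was with the Cajal-Retzius list, 0.52 (rho 0.60), which did not pass either (adjusted p = 0.309 for r and 0.187 for rho). The diet difference of Eomes was -0.077 (SE 0.29, adjusted p = 0.969 in limma's fit), far below the SD of 0.68 in controls and 0.54 with PIO. Its sign turned without control animal 6 (0.11) and without control animal 8 (0.032), and it was -0.24 without PIO animal 10. Within arrays 10 to 24 the difference was -0.65 (SE 0.31, unadjusted p = 0.0598 in limma's fit), and among arrays 1 to 6, with 4 controls and 2 PIO animals, it was 0.82.

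Ccnd2, cyclin D2, which adult progenitors need in order to divide, was measured by 7 probe sets, all above the filter. The leading one had a control mean of 10.82 ± 0.14 and a PIO mean of 10.85 ± 0.11 (SD, n = 8 each), a difference of 0.032 (SE 0.062, adjusted p = 0.936 in limma's fit). Controls with array numbers 1 to 4 read 10.81 to 11.05 and the other controls 10.65 to 10.82. With array number as a block the difference was 0.083 (SE 0.044, unadjusted p = 0.0784 in limma's fit), and leaving out 1 animal gave as little as 0.0078 (control animal 6) and as much as 0.065 (control animal 3). With PIO, 5 probe sets had a higher and 2 a lower mean, between -0.040 and 0.15. The probe set with the largest difference (SE 0.068) had an unadjusted p of 0.0482 in limma's fit and all 8 PIO animals above the control median, and its r to the leading probe set was 0.34 (permutation p = 0.196). Of the 16 other cell cycle genes listed, among them Mki67 and Top2a, only 8 passed the filter, and none of these 8 had an unadjusted p under 0.05. Their median difference was -0.035, and the smallest p belonged to Cdk2 (-0.11, SE 0.067) and Cdk4 (-0.073, SE 0.050), the kinases that cyclins E and D bring to the cell cycle. Over 16 arrays Ccnd2 followed the mean of these 8 genes with rho of 0.74 (permutation p adjusted over 91 relations, 0.0416) and r of 0.61 (adjusted p = 0.211). In the largest batch r was 0.71 (adjusted p = 0.135), and without control animal 5 and PIO animal 15 it was 0.45 (adjusted p = 0.597).

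Dcx, doublecortin, the standard marker of neuroblasts and young granule neurons, varied more between animals than 95% of the genes tested. It read 7.43, 7.14, 7.32, 7.43, 7.68, 7.77, 7.82 and 6.94 in control animals 1 to 8, and 7.49, 6.94, 6.99, 7.54, 7.81, 8.18, 8.15 and 7.22 in PIO animals 9 to 16. The highest values were those of PIO animals 14 and 15, and the other 6 PIO animals lay within the control range or within 0.01 of its lowest value. The means were 7.44 ± 0.31 and 7.54 ± 0.48 (SD, n = 8 each), a difference of 0.098 (SE 0.19, adjusted p = 0.936 in limma's fit). The second measurable probe set differed by 0.38 (SE 0.35), and its r to the first was 0.66. Without PIO animals 14 and 15, left out after the values were seen, the difference turned to -0.11 (SE 0.16), and with the dentate list mean as a covariate to -0.093 (SE 0.11).

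Dcx ran against the dentate gyrus markers. Of 91 relations between the 7 members and 13 marker lists, 4 passed a permutation p adjusted over all 91 for r, and all 4 were of Dcx. For rho 3 passed, 2 of Dcx and that of Ccnd2 with the proliferation list. With the mean of 11 dentate granule genes r was -0.83 (adjusted p = 0.00546) and rho -0.76 (adjusted p = 0.0416). With the subventricular and olfactory lineage list (5 genes) r was 0.83 (adjusted p = 0.00546) and rho 0.84 (adjusted p = 0.0136), and with the striatal list (8 genes) r was 0.77 (adjusted p = 0.00758) and rho 0.71 (adjusted p = 0.0533). The fourth, with the 8 hippocampal and forebrain markers, had r of -0.77 (adjusted p = 0.0105) and rho of -0.71 (adjusted p = 0.0533), and that list shares Prox1 with the dentate one.

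These relations rested in part on the most extreme animals. Without PIO animals 14 and 15, r was -0.66 for the dentate list, 0.68 for the subventricular list, 0.54 for the striatal list and -0.54 for the hippocampal list, and none of the 4 passed the adjusted threshold (0.273 to 0.477). In the largest batch the dentate r was -0.88 (adjusted p = 0.0118) and the hippocampal r -0.91 (adjusted p = 0.00455), and the subventricular and striatal r of 0.78 and 0.69 did not pass (0.0803 and 0.128). The second Dcx probe set, adjusted over its own 13 relations, had r of -0.68, 0.52, 0.63 and -0.43 with the dentate, subventricular, striatal and hippocampal lists, and -0.40, 0.15, 0.20 and 0.11 without PIO animals 14 and 15. The subventricular and hippocampal relations of this probe set did not pass with every array (adjusted permutation p = 0.106 and 0.169), and the dentate and striatal ones did (0.0272 and 0.0383). Its largest r was with the proliferation list, -0.71 (rho -0.71, adjusted permutation p = 0.0242), -0.81 in the largest batch (adjusted p = 0.0117) and -0.59 without control animal 5 and PIO animal 15 (adjusted p = 0.160). Whether tissue content accounts for the Dcx values was not tested.

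**Figure D5:**
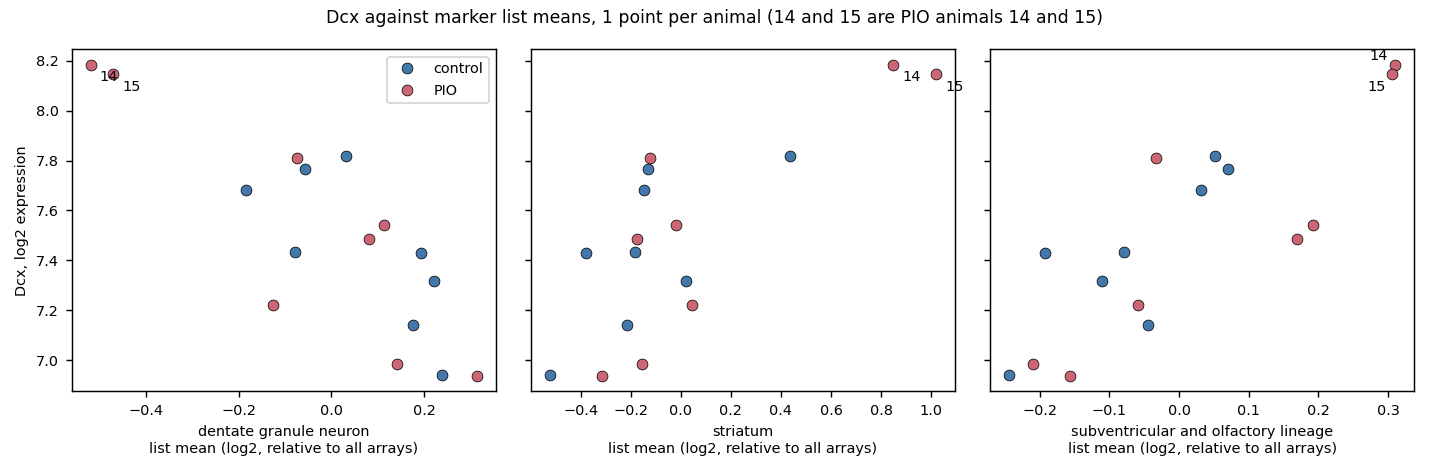
Log2 expression of Dcx against the mean of the dentate granule, striatal and subventricular marker lists, relative to all arrays, 1 point per animal in the colour of its diet. The points slope down in the first panel and up in the other 2, with PIO animals 14 and 15 at the far end of each.

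The genes most like Dcx followed it closely. After diet means were subtracted, the 4 highest r over 16 arrays were those of Ngef (0.98), a guanine exchange factor downstream of Eph receptors, Arpp21 (0.97), a cAMP-regulated phosphoprotein abundant in striatum and cortex, Tmsb10 (0.97), an actin-binding thymosin, and Lin7a (0.97), a synaptic scaffold protein. They were 0.97, 0.95, 0.97 and 0.95 without the 2 arrays farthest from the median of Dcx. These 4 differed between diets by between -0.015 and 0.24, with adjusted p of 0.872 or more in limma's fit. For Sox11 the highest r were 0.84 for Mideas, part of a histone deacetylase complex, 0.78 for Samd14, 0.76 for the tRNA methyltransferase gene Alkbh8 and 0.75 for Pid1. They were 0.83, 0.82, 0.76 and 0.62 without the 2 arrays farthest from the median of Sox11. Samd14 differed between diets by 0.20 (SE 0.052, adjusted p = 0.532). For Neurod1 they were the splicing gene Snrpd3 (0.85), Tmem167b (0.82), the JNK scaffold gene Mapk8ip1 (0.81) and the translation repressor gene Eif4ebp2 (0.81). Without the 2 arrays farthest from the median of Neurod1 these r were 0.76, 0.77, 0.59 and 0.60. All genes named here were picked for having the highest r among all genes tested. How high such a best r would be by chance was not computed. The r with 2 arrays left out belong to the same picked genes and are no separate test. No link of Sox11 or Neurod1 with the genes named for them is drawn.

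Tubb2b, a beta tubulin of growing neurites, averaged 11.65 ± 0.24 in control animals and 11.69 ± 0.27 in PIO animals (SD, n = 8 each). It ranged from 11.27 to 12.02 in controls and from 11.19 to 12.00 with PIO, and the groups overlapped over nearly all of it. The difference was 0.044 (SE 0.12, adjusted p = 0.960 in limma's fit), and without control animal 4 it was -0.010. Tubb2b and Dcx, both microtubule proteins of young neurons, had r of -0.43 over 16 arrays (permutation p = 0.0952, adjusted p = 0.535) and r of -0.74 in the largest batch (p = 0.00871, adjusted p = 0.131).

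Other genes of the lineage gave a mixed picture. Of 20 further neuroblast and immature neuron genes 19 were tested, and 4 had an unadjusted p under 0.05, all with higher means in PIO animals, beside the 3.86% of all genes that did so. The 4 were Dpysl5 (0.24, SE 0.062), a collapsin response mediator of growing axons, Nnat (0.25, SE 0.081), neuronatin, Marcksl1 (0.28, SE 0.099), an actin-binding MARCKS relative, and Cd24a (0.33, SE 0.14), a surface protein of neuroblasts that ependymal cells carry too. Their adjusted p were 0.532 to 0.681 in limma's fit. Dpysl5 averaged 5.63 ± 0.13 in control animals and 5.87 ± 0.12 in PIO animals (SD, n = 8 each). The list as a whole had 10 genes with a higher and 9 with a lower mean, and a median of 0.018. Without PIO animals 14 to 16, 2 of the 4 kept an unadjusted p under 0.05, Dpysl5 (0.25, SE 0.076) and Nnat (0.23, SE 0.099), and in the largest batch 1 did, Dpysl5 (0.25, SE 0.086).

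Stem cell genes lay on both sides of 0, and most dentate granule genes had a lower mean with PIO. Of 15 stem and radial glia genes 13 were tested, 6 with a higher and 7 with a lower mean and a median of -0.017. An unadjusted p under 0.05 was found for 2 of them, beside 7.00% of all genes in either direction. They were Hes5 (0.36, SE 0.15), a Notch target of stem cells, and Prom1 (-0.22, SE 0.090), the surface protein CD133. Both had an adjusted p of 0.681 in limma's fit, and Notch1 differed by -0.11 (SE 0.060). Of 11 dentate granule genes 9 had a lower mean with PIO and the median was -0.12. For 3 of the 11 the unadjusted p was under 0.05, beside the same 7.00% of all genes. They were Stxbp6 (-0.12, SE 0.045), a SNARE-binding protein, Trpc6 (-0.20, SE 0.091), a cation channel, and Calb1 (0.15, SE 0.059), calbindin, which mature granule neurons contain. Their adjusted p were 0.681 to 0.710 in limma's fit. Relative to all arrays, these genes averaged -0.52 in PIO animal 14 and -0.47 in PIO animal 15, below every other animal. The other PIO animals lay between -0.13 and 0.31, and the controls between -0.18 and 0.24. How the 11 differences would stand with animals 14 and 15 left out was not computed.

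Marker lists of other cells that express some of the members are given for comparison. Oligodendrocyte precursor genes had 3 higher and 8 lower means among 11 tested, a median of -0.083 and array means of -0.074 to 0.18 in controls and -0.17 to 0.14 with PIO, and 1, Bcas1, had an unadjusted p under 0.05 (-0.23, SE 0.10), with Olig1 at -0.15 (SE 0.079) and Matn4 at -0.13 (SE 0.082). Striatal genes had 7 of 8 means higher and a median of 0.26, with Penk at 0.77 (SE 0.33), Gpr6 at 0.81 (SE 0.37) and Tac1 at 0.30 (SE 0.18). The striatal list mean was 0.85 and 1.02 in PIO animals 14 and 15. It ran from -0.32 to 0.045 in the other PIO animals and from -0.52 to 0.43 in controls. The striatal differences without animals 14 and 15 were not computed. The subventricular and olfactory genes had 4 of 5 means higher and a median of 0.18, with Dlx5 at 0.18 (SE 0.084), Dlx2 at 0.088 (SE 0.043) and Tshz1 at 0.18 (SE 0.096). Their array means ran from -0.24 to 0.070 in controls and from -0.21 to 0.31 with PIO. Choroid plexus genes had 11 of 11 means higher, with a median of 1.37 and SD between animals of 2.75 in the median gene. Thalamic and habenular genes had 9 of 9 means higher (median 0.18), Cajal-Retzius genes 2 of 3 (0.27), brain endothelial genes 2 of 7 (-0.17, with Tek at -0.44, SE 0.17) and pericyte and smooth muscle genes 4 of 8 (-0.028). The thalamic list mean was 1.40 in PIO animal 16, 0.27 in animal 14 and 0.11 in animal 15. It ran from -0.30 to -0.037 in the other PIO animals and from -0.30 to 0.014 in controls. The 8 hippocampal and forebrain markers had 3 higher and 5 lower means and a median of -0.12. Beside Bcas1, the striatal genes Penk and Gpr6 and the endothelial gene Tek had an unadjusted p under 0.05 in limma's fit. No other gene tested on the lists of this paragraph did, where 7.00% of all genes did. None of these genes passed the adjusted threshold, and their part in the values of the members was not tested.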

How the data were processed

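Hippocampal RNA of 16 mice was measured on Affymetrix arrays. The authors deposited log2 values, 1 for each probe set on each array, a scale read from their range. Per the submitters' processing notes the tools were MAS5, GCRMA and R 2.7.1, but the step each was used for is not stated. The values were used as deposited, with no pseudocount. Detection calls were not used here.

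Of 45101 probe sets, 64 control spots were left out, and 34945 of the others had 1 gene symbol, 932 several and 9160 none here. Among the 22811 above the 40th percentile, each gene was represented by its brightest probe set, which left 12266 genes. Diets were compared in limma 3.58.1 (lmFit, eBayes; R 4.3.3), PIO minus control, with Benjamini-Hochberg adjustment over all genes, and again over all probe sets. Differences have moderated SEs. The fit was tested on simulated data. Correlations have 100000 permutations, two-sided (Python 3.11.15).

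The members and lists were chosen with earlier results of these data known. Named genes were all members, up to 3 genes per list with the smallest p (Cd24a was added after its value was seen) and the 4 genes most correlated with Dcx, Sox11 and Neurod1. Replicates are the animals numbered in the labels, and precision is limited by how many arrays there are. Alternatives were other filters, probe set rules, normalizations, batch and array number terms, covariates and animals left out.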

Additional observations from a re-analysis of the deposited data

How the results depend on the processing

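No paired analysis was possible because the diets share no replicate numbers. Under 17 other settings, 1 of them (without PIO animals 14 and 15) chosen after seeing the data, and with each animal left out in turn, no gene and no member passed the adjusted threshold. Sox11 and Sox4 kept their direction throughout, from 0.24 to 0.49 and from 0.11 to 0.20, with 0.27 to 0.42 and 0.13 to 0.18 when 1 animal was left out. Of the 2 members with an unadjusted p under 0.05, 0 were left in the largest batch and 1 with the striatal covariate (Sox4). Without PIO animals 14 and 15, 1 was left (Sox4). The first and last of these settings had fewer arrays. Without PIO animals 14 to 16 Sox11 was left, Sox4 (0.12) was not and Neurod1 (0.11) was added. Of the 6 Sox11 probe sets, 1, 2 and 2 were left in those settings and 3 without PIO animals 14 to 16, against 5 to 6 with 1 animal left out. All genes at that p numbered 290 in the largest batch, 534 without PIO animals 14 to 16 and 517 without 14 and 15, against 859, and 575 to 1137 with 1 animal left out (without PIO animals 15 and 10). The 4 neuroblast genes were 1 without probe sets of shared sequence, 1 in the largest batch and 2 without PIO animals 14 to 16, and 3 to 5 with 1 animal left out. Without control animal 2, 1 of all probe sets passed the adjusted threshold, where the range was 0 to 1. Eomes turned to 0.028 in the largest batch, 0.074 with the striatal and 0.023 with the dentate covariate, 0.12 without PIO animals 14 to 16 and 0.025 without 14 and 15, and was -0.65 in arrays 10 to 24, with -0.24 to 0.11 when 1 animal was left out. Dcx turned to -0.12 and -0.093 with those covariates and to -0.089 and -0.11 without those animals. Tubb2b turned to -0.046 in the largest batch, and ranged from -0.010 to 0.12 with 1 animal left out. With 1 animal left out Neurod1 ranged from 0.0097 to 0.066, Ccnd2 from 0.0078 to 0.065 and the member median from 0.033 to 0.11. Of the 45 member pairs 0 passed the adjusted threshold for r, but 1 did with diet means subtracted (Igfbpl1 and Draxin), 1 in the largest batch (Nes and Igfbpl1) and 1 without the 2 farthest arrays (Igfbpl1 and Draxin), all below the filter. Apart from those sets of arrays and terms, the cause of these moves was not tested. For probe sets of low signal, a difference may not be detectable.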

Other observations

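One probe set named for both Tubb2b and the pseudogene Tubb2a-ps2 was left out, and its mean was 9.52 ± 0.47 log2 units in control animals and 9.14 ± 0.52 in PIO animals (SD, n = 8 each), a difference of -0.38 (SE 0.23, adjusted p = 1.00 in limma's fit), opposite in sign to that of Tubb2b alone. Igfbpl1 and Draxin, both below the filter on low values, correlated over 16 arrays with r of 0.73 (permutation p = 0.00122, adjusted p = 0.0549) and rho of 0.92 (adjusted p = 0.00045), although their SD between animals was under 0.06 log2 units. With diet means subtracted r was 0.80 (adjusted p = 0.0045). Other probe sets below the filter differed in how far they moved alike. Over 16 arrays the leading Nes one had r of 0.29 with Igfbpl1 and 0.083 with Draxin, and 0.88 and 0.58 in the largest batch. A Sox4 one moved much like Igfbpl1 in controls, and read 1.19, 1.19, 1.15, 1.14, 1.19, 1.15, 1.18 and 1.15 in control animals 1 to 8. The leading Igfbpl1 one read 2.28, 2.32, 2.24, 2.23, 2.29, 2.25, 2.28 and 2.25. Whether low values shift together by array was not tested, and no relation between the 2 genes is drawn.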
